A study of Mus musculus with 3 samples.

Results

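The collagen genes of the mouse were examined for the ubiquitinated form of histone H2A (H2AK119ub), mapped by chromatin immunoprecipitation and sequencing (ChIP-seq) in the epithelium of the newborn tongue. Members were the protein-coding genes whose symbol is Col, a number, a and a number. The reference held 44 of them among 21631 protein-coding genes, on 15 chromosomes. Of the called regions, 18 of 7838 in replicate 1 and 24 of 8093 in replicate 2 named a collagen gene or overlapped its bounds. Both replicates came from mice of control genotype at postnatal day 0, with tongue epithelial cells sorted by the surface protein EpCAM after the circumvallate papillae had been cut off. There were 2 H2AK119ub libraries, each made from 4 ng of DNA, while the 1 input library was left out as not analysed here. The labels call the replicates biological and do not give the strain, the number of animals per sample or what the control genotype carries. Both samples form a single group with no second condition to set against it, and expression of cell type markers could not be checked from lists of regions.

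H2AK119ub is laid down by Polycomb repressive complex 1 (PRC1), whose catalytic subunits are the RING1 proteins. The mark is best known from CpG-rich promoters of developmental genes that are silent in the cell type at hand. Collagens are triple-helical proteins of the extracellular matrix. Fibrillar collagens form the cables of connective tissue and are made chiefly by fibroblasts, cartilage and bone cells. Type IV collagens form the network of basement membranes, on which an epithelium rests. Type VII collagen anchors that sheet to the tissue beneath, and type XVII collagen is a transmembrane protein of the hemidesmosomes of basal keratinocytes. Accordingly the genes were placed in a fibrillar class (11 genes), a basement membrane class (the 6 type IV genes), an epithelial class (Col7a1 and Col17a1) and a remainder of 25 genes, which comprises fibril-associated, beaded-filament, short-chain, multiplexin, transmembrane and unclassified types.

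The sequence just before the annotated start is shown for 4 members, because the epithelial class split between a gene whose start lay in a region in both replicates (Col7a1) and one whose start did not (Col17a1), and because Col8a2 and Col18a1 had the widest promoter regions among the marked members outside the fibrillar class. Each run is the 250 bases before the start in RefSeq's promoter table for GRCm38.p6 (mm10), read 5′ to 3′ on the strand of the gene, with every CG dinucleotide in capitals. The Col7a1 window is chr9:108953336-108953585 on the plus strand, the Col17a1 window chr19:47692043-47692292 on the minus strand, the Col8a2 window chr4:126286544-126286793 on the plus strand and the Col18a1 window chr10:77166531-77166780 on the minus strand.
Col7a1: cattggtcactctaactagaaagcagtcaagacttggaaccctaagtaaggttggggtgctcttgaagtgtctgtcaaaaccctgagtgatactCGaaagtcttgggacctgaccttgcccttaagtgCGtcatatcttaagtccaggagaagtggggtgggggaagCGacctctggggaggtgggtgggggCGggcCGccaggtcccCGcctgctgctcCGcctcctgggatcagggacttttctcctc
Col17a1: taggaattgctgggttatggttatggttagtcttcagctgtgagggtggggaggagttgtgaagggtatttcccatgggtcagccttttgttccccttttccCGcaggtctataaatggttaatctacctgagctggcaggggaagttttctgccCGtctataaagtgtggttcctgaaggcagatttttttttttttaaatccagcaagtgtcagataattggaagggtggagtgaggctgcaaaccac
Col8a2: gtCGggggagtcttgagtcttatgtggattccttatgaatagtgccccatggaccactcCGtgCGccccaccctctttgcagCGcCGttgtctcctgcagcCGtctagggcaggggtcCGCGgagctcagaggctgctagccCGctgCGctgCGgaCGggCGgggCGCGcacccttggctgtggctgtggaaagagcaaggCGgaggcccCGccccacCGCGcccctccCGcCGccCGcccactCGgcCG
Col18a1: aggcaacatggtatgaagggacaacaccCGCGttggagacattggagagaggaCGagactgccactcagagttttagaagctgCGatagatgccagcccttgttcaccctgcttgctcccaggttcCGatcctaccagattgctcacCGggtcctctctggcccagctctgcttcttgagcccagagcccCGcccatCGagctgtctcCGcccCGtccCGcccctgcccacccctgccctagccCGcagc

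The Col8a2 window held 24 CG dinucleotides, the Col18a1 window 12, the Col7a1 window 7 and the Col17a1 window 2. Over the 32851 windows of the same length in the table the median was 6, with quartiles of 2 and 16, and 92.1% held at least 1. GC content was 70.0% in Col8a2, 62.0% in Col18a1, 56.4% in Col7a1 and 46.0% in Col17a1. The windows of Col8a2, Col18a1 and Col7a1 lay wholly inside a region in both replicates, and that of Col17a1 lay in none. These counts describe 4 sequences only. A comparison of CG content between collagens with and without promoter regions was void, since the table matched 35 of 44 members (79.5%) and 3 of the 7 named by promoter regions in both replicates. The members without an entry were Col1a1, Col2a1, Col4a3, Col5a2, Col9a3, Col12a1, Col14a1, Col22a1 and Col26a1.

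A gene was counted as marked when a region of the promoter class, 1 of the 4 location classes the authors assigned, named it in both replicates. By that rule 7 of 44 collagen genes were marked (15.9%, exact 95% binomial interval 6.64 to 30.1%), against 8.82% of all protein-coding genes. The interval includes the background share. It covers counting error only and takes the genes as independent, although some lie side by side, so it is not a test. The marked genes were the cartilage collagen Col2a1, the anchoring fibril collagen Col7a1, the cartilage fibril-associated collagen Col9a3, the fibril-associated collagen Col14a1, the basement membrane multiplexin Col18a1, the short-chain collagen Col8a2, which is known from the corneal endothelium, and Col26a1. In all, the list of replicate 1 named 8 members (18.2%, background 12.8%) and that of replicate 2 named 7 (15.9%, background 12.4%). The gene Col1a1 made the difference, as 1 member named by replicate 1 only, where the share of all genes was 3.99%. No member was named by replicate 2 only, against 3.62% of all genes.

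By class, 1 of 11 fibrillar genes (9.09%, exact 95% interval 0.230 to 41.3%), 0 of 6 basement membrane genes (0 to 45.9%), 1 of 2 epithelial genes (1.26 to 98.7%) and 5 of 25 other genes (6.83 to 40.7%) were marked. With so few genes a class the intervals are wide, and no difference between classes was tested. In the remainder the marked genes were 2 of 9 fibril-associated collagens, 1 of 3 short-chain collagens, 1 of 2 multiplexins and 1 of the 2 unclassified genes, with 0 of 6 beaded-filament and 0 of 3 transmembrane collagens.

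**Figure D1:**
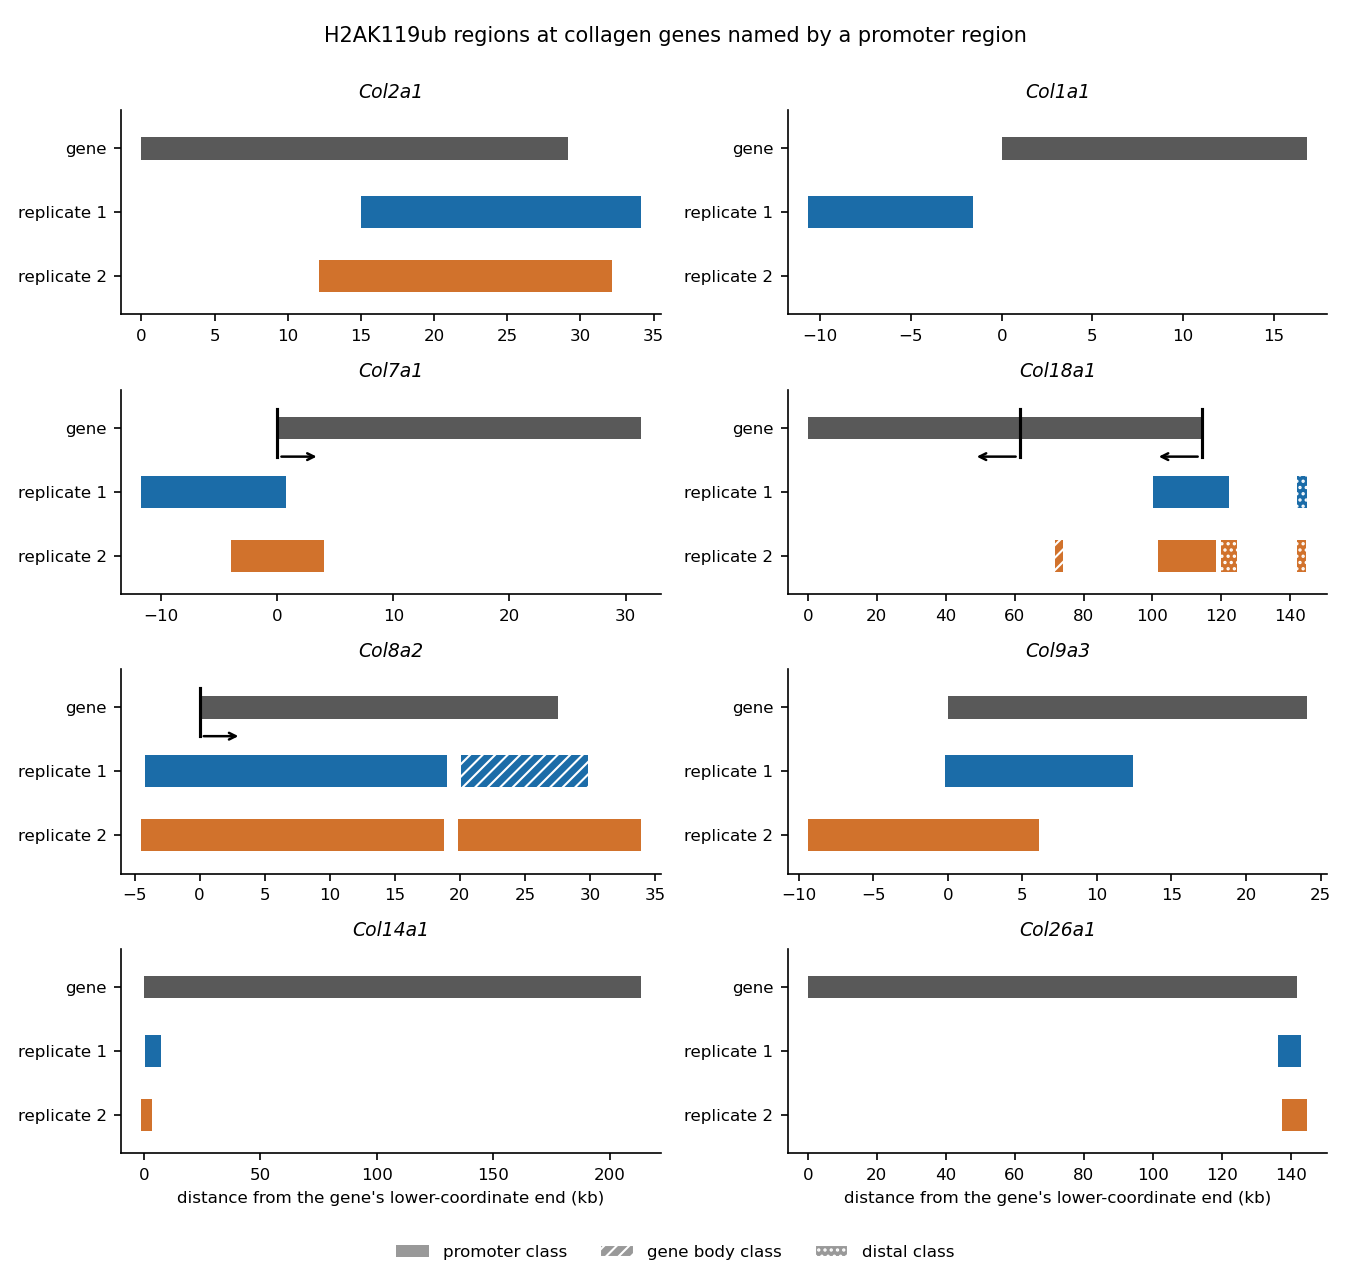
Regions at the 8 collagen genes that a promoter region named in at least 1 replicate, drawn in kb from the lower-coordinate end of each gene, with the gene in grey, replicate 1 in blue and replicate 2 in orange. Solid bars are promoter regions, hatched bars gene body regions and dotted bars distal regions. Black lines with arrows are annotated starts where the reference lists one. The promoter regions of both replicates overlap at 7 genes, while the Col1a1 region was called in replicate 1 alone.

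Among fibrillar collagens, Col2a1, the main fibrillar collagen of cartilage (gene 12824, chromosome 15, 97975602 to 98004724), was the marked gene. Its promoter region was 19.1 kb wide in replicate 1 (97990616 to 98009717) and 20.1 kb wide in replicate 2 (97987709 to 98007772). The 2 regions shared 17.2 kb, 78.0% of the stretch they span together. They covered 48.4% and 58.4% of the gene from its higher-coordinate end and ran 4.99 and 3.05 kb past that end. Thus the Col2a1 region was close to the same size in both replicates, and it was wider than 84.2% and 89.1% of the promoter regions of its list.

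Type I collagen, the most abundant collagen of skin and bone, is built from the products of Col1a1 and Col1a2. Col1a1 (chromosome 11, 94936224 to 94953042) was named in replicate 1 by a promoter region of 9.08 kb (94925543 to 94934620), which ended 1.60 kb short of the gene. In replicate 2 the nearest region lay 16.1 kb from the gene on its other side and carried the names Hils1 and Sgca. Col1a2 (chromosome 6, 4505618 to 4541543) was free of regions, with the nearest 195 kb off in replicate 1 and 85.5 kb off in replicate 2. Neither type I gene was therefore overlapped by a region in either list.

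Col3a1, the type III chain found with type I in stretchable tissues (chromosome 1, 45311538 to 45349706), lay 2356 and 1612 kb from the nearest region. Its neighbour Col5a2, a chain of the type V collagen that nucleates fibrils, lay 2419 and 1675 kb away, so this pair sat in a long stretch with no called region. In all, 8 of the 11 fibrillar genes had no region over them and none that named them in either list. The others of these were Col5a3, Col11a1, Col11a2, Col24a1 and Col27a1. Col11a2 came closest, with regions named for H2-Oa 11.8 and 9.69 kb away. Of all protein-coding genes, 71.5% had no region over them and no name in either list. The count of 8 of 11 is near that share and is not a result about the class.

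No promoter region named a gene of the basement membrane class in either replicate. Of all protein-coding genes, 12.8% were named in replicate 1 and 12.4% in replicate 2, so 0 of 6 is a description only. Col4a1 and Col4a2 encode the 2 chains of the type IV network found in nearly all basement membranes and are transcribed in opposite directions from neighbouring starts on chromosome 8 (11312826 and 11312805). The region nearest to the Col4a1 start was 120 kb away in replicate 1. In replicate 2 it was a gene body region of Col4a1, 20.9 kb downstream of the start. That region measured 4.18 kb, and a second one in Col4a1 measured 2.10 kb, both in replicate 2 alone. Col4a2 (11312805 to 11449287) was free of regions, the nearest lying 29.2 and 20.9 kb from its bounds.

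Narrow gene body regions were called at 2 further type IV genes, both in replicate 1 alone. That at Col4a3, a chain known from the kidney filter, measured 0.792 kb and that at Col4a6 on the X chromosome 1.19 kb. Their paired neighbours Col4a4 and Col4a5 had none. Since these regions differed between the replicates, 0 of the 6 genes were overlapped in both lists. The share was 13.3% of all protein-coding genes and 27.3% of those at least as long as the median collagen gene. With 6 genes, a count of 0 beside these shares is not a result about the class. Regions covered 0.190% of the summed length of the 6 genes in replicate 1 and 0.599% in replicate 2, against 2.88% and 2.55% for all protein-coding genes.

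The 2 genes of the epithelial class differed in both lists. Col7a1 (gene 12836, chromosome 9, 108953586 to 108984875) carried a promoter region in each list, 12.4 kb wide in replicate 1 (108941893 to 108954341) and 7.96 kb wide in replicate 2 (108949647 to 108957602). Both covered the start that follows the sequence shown above. In replicate 1 the region lay almost wholly before the gene, from 11.7 kb upstream to 0.755 kb downstream of the start, and reached into the neighbouring gene Uqcrc1, which encodes a subunit of the respiratory chain. In replicate 2 it was centred near the start, from 3.94 kb upstream to 4.02 kb downstream. The lists shared 4.69 kb there, 29.9% of the joint span, and 2.42% and 12.8% of the gene was covered. Whether the replicates differ in the extent of the mark or only in where its edges were called could not be told from the lists.

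Col17a1 (gene 12821, chromosome 19, 47646341 to 47692042) was not overlapped by any region. Those nearest to the gene lay 74.7 and 77.0 kb away and were distal regions named for Slk. From its start the nearest were 88.7 and 121 kb away, within Cfap43. Of the basal keratinocyte and epithelial genes Krt5, Krt14, Trp63, Epcam, Cdh1, Itga6 and Itgb4, 0 of 7 were marked, against 8.82% of all protein-coding genes, and Krt5 was named by replicate 2 alone. Of 8 fibroblast genes, 5 were marked (Pdgfra, Pdgfrb, Prrx1, Snai1 and Twist1), Twist2 was named by replicate 1 alone, and Dpt and Lum were named by neither. The Pdgfrb regions also named Cdx1 in both replicates. That of replicate 1 ended at 61044301, short of the Pdgfrb bounds, which begin at 61045127. Of 4 endothelial genes 0 were marked, with Kdr named by replicate 1 alone and Pecam1, Cdh5 and Tek by neither. Of 4 muscle genes 2 were marked (Myod1 and Pax7), and Myf5 and Myog were named by neither. At the background share, 0 marked of 4 or of 7 genes is not a result about a list. These lists describe where the mark lay and not which genes were expressed.

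Col18a1 encodes the core of a basement membrane proteoglycan from which endostatin is cut (gene 12822, chromosome 10, 77052178 to 77166530). Its promoter region spanned 77152455 to 77174393 in replicate 1 (21.9 kb) and 77153888 to 77170768 in replicate 2 (16.9 kb), so that the region of replicate 2 lay entirely within that of replicate 1. A gene body region of 2.08 kb (77124031 to 77126110) was called in replicate 2 alone. In replicate 2 a distal region of 4.63 kb also followed the promoter region after a gap of 1.38 kb. Another distal region was called 27.6 and 27.7 kb from the gene in both replicates, 2.89 and 2.37 kb wide. The reference lists 2 starts for Col18a1. The first, at 77166530, lay inside the promoter region in both replicates, whereas the second, at 77113705, lay 38.8 kb from the nearest region in replicate 1 and 10.3 kb in replicate 2. At this gene the mark thus covered 1 of the 2 annotated starts.

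The widest promoter region of a collagen gene was that of Col8a2 (gene 329941, chromosome 4, 126286794 to 126314330). Its width was 23.2 kb in both replicates (126282632 to 126305803 and 126282325 to 126305562), and the lists shared 97.7% of the joint span. A second region followed after 1.08 and 1.11 kb. It was assigned to the gene body of Col8a2 in replicate 1 (9.76 kb) and to the promoter of the adjacent Adprhl2 in replicate 2 (14.0 kb). Together the 2 regions covered 96.0% ± 0.085 (SD, n = 2) of Col8a2, the highest coverage among the collagen genes. Between the replicates the second region differed more than the first, running 2.31 kb past the gene in replicate 1 and 6.35 kb in replicate 2.

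The remaining marked genes were Col9a3, Col14a1 and Col26a1. Col9a3, a chain of the type IX collagen that coats cartilage fibrils (chromosome 2, 180598102 to 180622192), had regions of 12.6 kb (180597882 to 180610517) and 15.5 kb (180588715 to 180604214), which shared 29.0% of their joint span. That of replicate 2 reached 9.39 kb beyond the gene and also named Ogfr. At Col14a1, a fibril-associated collagen of skin and tendon (chromosome 15, 55307644 to 55520803), the regions were 6.94 kb (55307968 to 55314903) and 4.37 kb (55306642 to 55311009). They lay at the lower-coordinate end of a gene of 213 kb and covered 3.25% and 1.58% of it, with 36.8% of their joint span shared. At Col26a1 (chromosome 5, 136741759 to 136883376) the regions were 6.70 kb (136877939 to 136884642) and 7.32 kb (136879043 to 136886358), at the higher-coordinate end, with 66.5% shared. All 7 marked genes carried regions that overlapped between the lists.

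**Figure D2:**
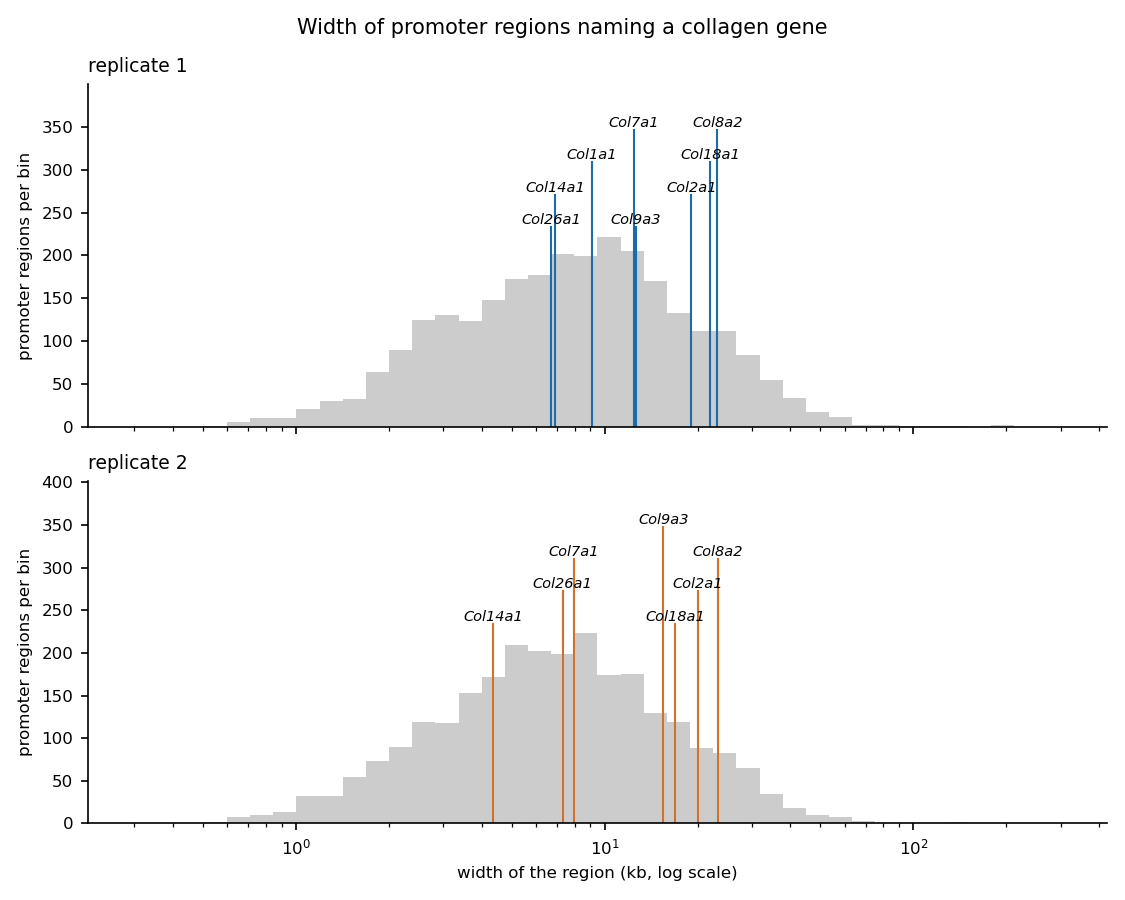
Width of the promoter regions that name a collagen gene (coloured lines, 8 in replicate 1 and 7 in replicate 2), on a log axis in kb, over the number of all promoter regions per bin of equal log width (grey bars). The Col8a2, Col18a1 and Col2a1 regions lie to the right of the peak in both replicates, at 16.9 kb or more.

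Promoter regions that named a collagen gene had a median width of 12542 bp in replicate 1 (8 regions) and 15499 bp in replicate 2 (7 regions). The median of all promoter regions was 8080 bp in replicate 1 and 6843 bp in replicate 2. Of the collagen regions, 6 of 8 and 6 of 7 were wider than that median. Col8a2, Col2a1 and Col18a1 stood above at least 84.2% of the promoter regions in each list, while Col14a1 and Col26a1 stood between 30.0% and 53.0%. The plot of widths by replicate shows the shifts between lists. Col14a1 was 1.59 times, Col7a1 1.56 times and Col18a1 1.30 times wider in replicate 1, and Col9a3 was 1.23 times wider in replicate 2.

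Regions within the gene bounds, of any class, were then considered. In both replicates 11 of 44 genes were overlapped by at least 1 bp (exact 95% interval of the share 13.2 to 40.3%), against 13.3% of all protein-coding genes. The same 11 were named by a region of any class in both lists, against a background of 15.3%. Collagen genes are long, with a median of 114 kb against 17.3 kb for all protein-coding genes, and longer genes met a region more often. Among genes at least as long as the median collagen gene, 4 of 22 collagen genes were overlapped (18.2%), against 27.3% of all such genes. Among shorter genes 7 of 22 were overlapped (31.8%), against 11.8%. The promoter rule gave the same order, with 2 of 22 long collagen genes marked (9.09%, background 12.1%) and 5 of 22 shorter ones (22.7%, background 8.48%). Within each length group the collagen genes were not matched to all genes by length, so these shares are not adjusted for it. Over the summed length of the 44 genes, 2.76% lay in regions in replicate 1 and 2.54% in replicate 2. For all protein-coding genes the values were 2.88% and 2.55%, so the covered share of collagen genes was close to that of genes at large. By class the share was 3.92% and 2.65% for fibrillar genes, 0.982% and 5.22% for epithelial genes and 3.25% and 3.06% for the other genes, beside the 0.190% and 0.599% of the basement membrane class. The epithelial values rest on Col7a1.

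**Figure D3:**
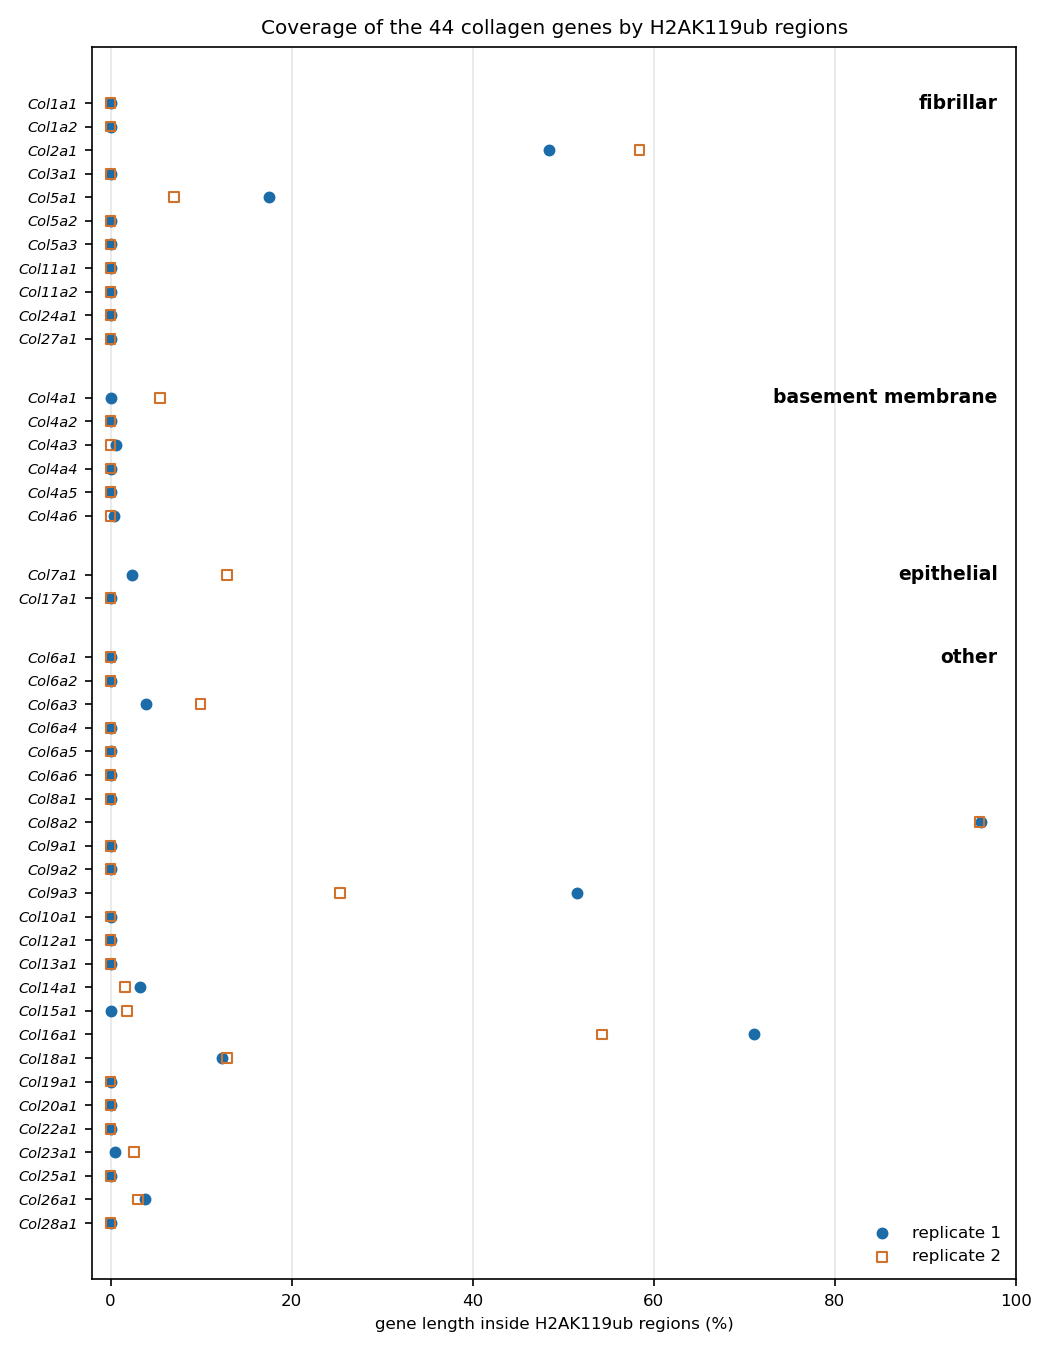
Share of each of the 44 collagen genes that lies inside regions, in percent of the gene length, by class (filled circles, replicate 1; open squares, replicate 2). Most genes are at 0 in both replicates, Col8a2 is near 96%, and the fibrillar class holds Col2a1 and Col5a1 above 0.

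The 4 genes overlapped in both replicates without being marked were Col5a1, Col16a1, Col6a3 and Col23a1. Col16a1, a fibril-associated collagen made by fibroblasts and keratinocytes (chromosome 4, 130047817 to 130099277), carried the widest region of any collagen gene. The region of replicate 1 was 39.8 kb wide (130062696 to 130102544) and that of replicate 2 was 30.9 kb wide (130071339 to 130102230), wider than 99.0% and 98.6% of all regions of the list. It began 14.9 and 23.5 kb downstream of the annotated start and ran 3.27 and 2.95 kb past the other end of the gene, so that the start lay outside it. Of the gene, 71.1% and 54.3% were covered.

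Col5a1, a fibril-nucleating chain (chromosome 2, 27886381 to 28039510), had gene body regions of 1.35 and 25.5 kb in replicate 1 and of 5.94, 3.17 and 1.61 kb in replicate 2. The nearest to its start lay 17.5 and 13.6 kb downstream. The replicates differed at the second site, where a region of 25.5 kb in replicate 1 faced one of 1.61 kb in replicate 2, and 2.95 kb of the gene was covered in both. Regions covered 12.3% ± 7.45 (SD, n = 2) of Col5a1.

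Col6a3, a beaded-filament chain of connective tissue (chromosome 1), had 1 gene body region in replicate 1 (3.06 kb) and 2 in replicate 2 (6.67 and 1.00 kb), and these shared no base pair. A distal region 3.84 and 1.90 kb past the gene, 1.54 and 2.74 kb wide, was called in both. Col23a1, a transmembrane collagen (chromosome 11), had 1 gene body region of 1.45 kb in replicate 1 and 3 of 0.958 to 3.78 kb in replicate 2, again with no base pair in common. Col15a1, the other multiplexin, had a gene body region of 1.89 kb in replicate 2 alone. Of the gene body regions at collagen genes, 4 of 8 in replicate 1 and 3 of 13 in replicate 2 overlapped a region of the other list, against 52.7% and 53.4% of all gene body regions. Their median widths were 2255 and 2877 bp, against 3701 and 3343 bp for all gene body regions.

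**Figure D4:**
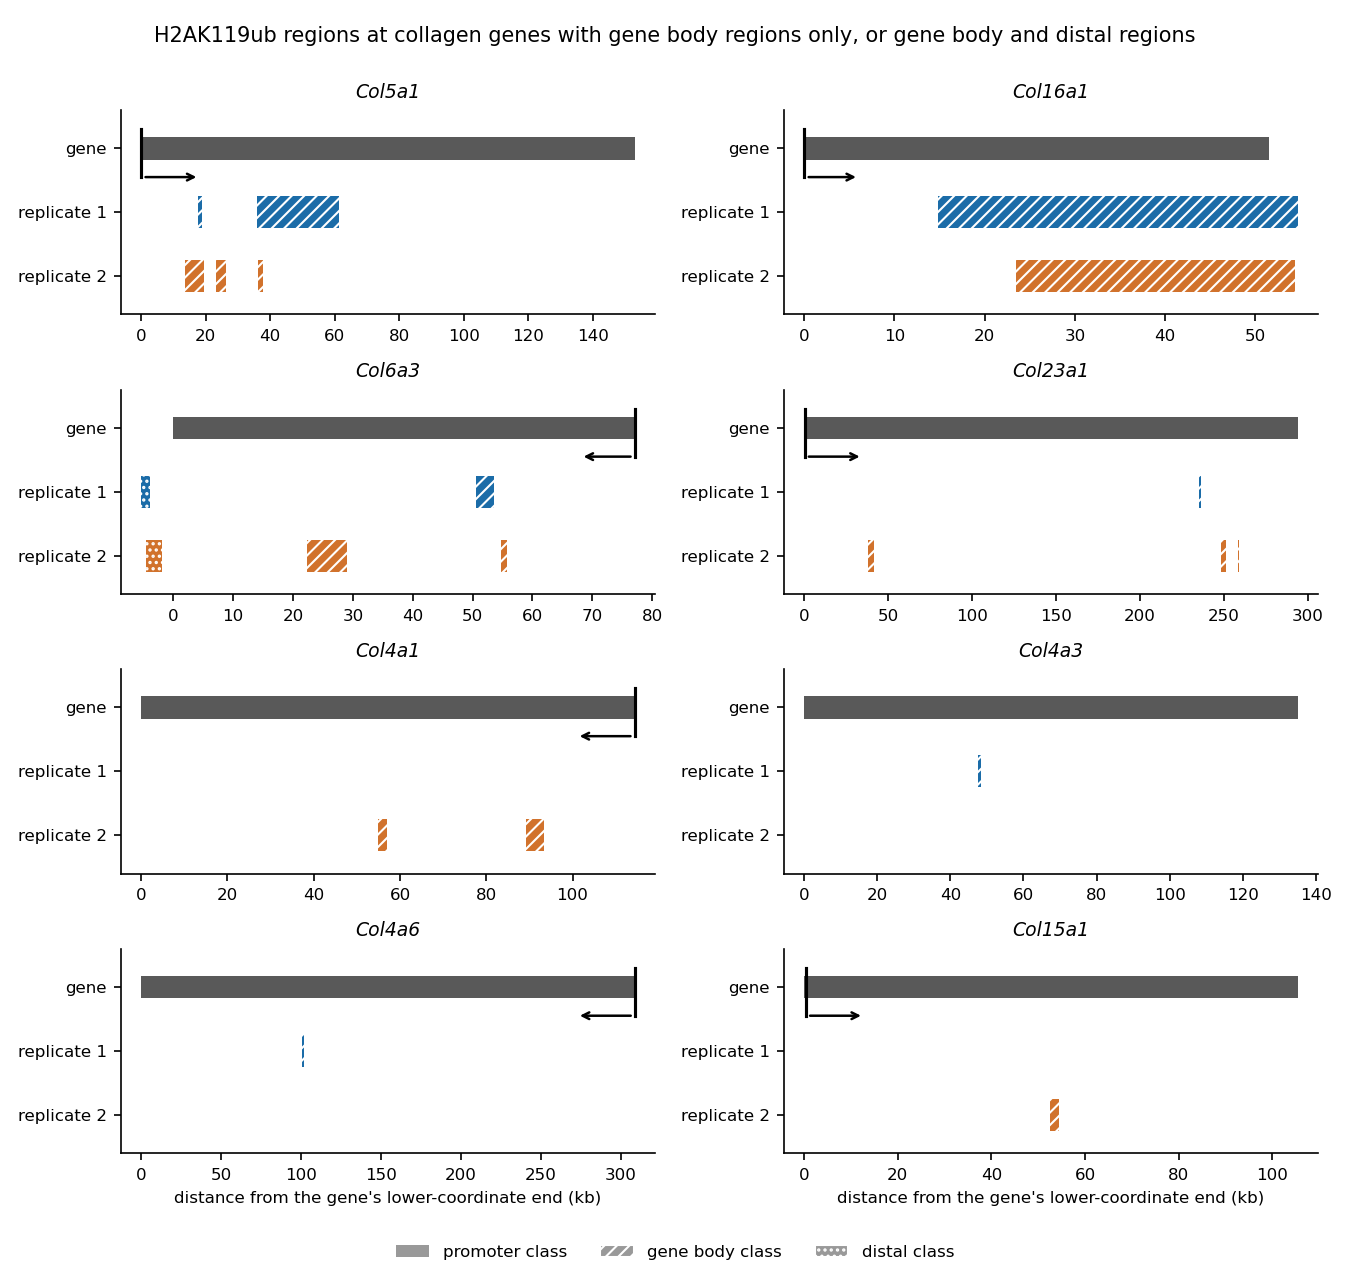
Regions at the 8 collagen genes that have gene body regions and no promoter region of their own name, drawn in kb from the lower-coordinate end of each gene, with the same marks as in the maps of promoter regions. Col16a1 and Col5a1 have regions that overlap between the replicates, and the narrow regions at Col6a3, Col23a1 and the type IV genes within the gene bounds do not.

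In total 28 of the 44 collagen genes had no region over them and none that named them in either list (63.6%), against 71.5% of all protein-coding genes. Their distance to the nearest region had a median of 200 kb in replicate 1 and 185 kb in replicate 2, and ranged from 9.62 to 3540 kb and from 9.69 to 3542 kb. The farthest was Col10a1, the collagen of hypertrophic cartilage. Besides the fibrillar, type IV and epithelial members given above, these genes were Col6a1, Col6a2, Col6a4, Col6a5 and Col6a6 of the beaded-filament type, the fibril-associated Col9a1, Col9a2, Col12a1, Col19a1, Col20a1 and Col22a1, the short-chain Col8a1 and Col10a1, the transmembrane Col13a1 and Col25a1, and Col28a1. Marked collagens thus had unmarked partners of the same trimer or type: Col9a3 was marked and Col9a1 and Col9a2 were not, and Col8a2 was marked and Col8a1 was not. Of the 35 members with a start in the promoter table, Col7a1, Col8a2 and Col18a1 had one inside a region, the same 3 genes in each replicate. The same share over all genes was not computed, so this count is a description only. The marked genes Col2a1, Col9a3, Col14a1 and Col26a1 had no entry in that table and could not be counted here.

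Genes related to collagen were counted from lists of 100 genes in all, of which 16 were marked (16.0%, background 8.82%). These lists were chosen with earlier results of these data known, so the share gives no independent support. By list it ran from 0% for collagenases to 35.7% for factors upstream of collagen genes. Of 26 genes for the folding and trimming of collagen chains, 3 were marked, namely the glycosyltransferase gene Colgalt2 (3.36 and 3.73 kb), the lysyl hydroxylase gene Plod1 (5.48 and 5.30 kb) and the propeptide-cleaving protease gene Tll1 (4.86 and 5.46 kb). Adamts2 and Plod2 were named in replicate 1 alone. P4ha1, P4ha3, Pcolce2 and the collagen chaperone gene Serpinh1 (9.81 kb) were named in replicate 2 alone. Of 6 cross-linking genes Loxl1 was marked (16.1 and 17.7 kb), and of 10 collagen receptor genes Ddr1 (1.90 and 1.49 kb). The cross-linking gene Loxl2 was named in replicate 1 alone and the receptor gene Mrc2 in replicate 2 alone. Of 18 fibril-associated protein genes 3 were marked, namely Comp (15.9 and 20.7 kb), Tnxb (18.0 and 16.2 kb) and Postn (1.92 and 5.44 kb). Tgfbi was named in replicate 1 alone. Of 15 genes listed as basement membrane partners 3 were marked. These were the linker gene Nid1 (3.79 and 4.49 kb), Fbln2 (8.75 and 13.4 kb) and Grip1 (3.06 and 2.10 kb). The Grip1 regions, from 119816345 and from 119817715, lay within the gene bounds (chromosome 10, 119453238 to 120087267). The laminin-binding proteoglycan gene Agrn was named in replicate 1 alone and Nid2 in replicate 2 alone. None of 11 collagenase and related protease genes was named by a promoter region in either list. Of 14 genes for factors that act upstream of collagen genes 5 were marked, namely Foxc2, Prrx1, Scx, Sox9 and Twist1. The Foxc2 regions also named Foxl1 in both replicates and Mthfsd in replicate 1. Sox9, the factor that drives Col2a1 in cartilage, had promoter regions of 8.27 and 13.4 kb, and Scx, a tendon factor, had regions of 21.0 and 17.7 kb.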

How the data were processed

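Each H2AK119ub replicate has its own list of regions, deposited by the authors, so replicates were not pooled before calling. Per the file headers, a row gives a chromosome, start, end, location class and gene name. No height, score or count is listed, so the depth is unknown and the strength of a region could not be ranked. Bowtie2 2.3.3, SAMtools 0.1.19 and mm10 are named per the submitters' processing notes. How regions were called, whether the input entered, whether coordinates count from 0 or 1 and how the classes were set is not given in the sources used here. No gap within a list was under 999 bp, so closer stretches of signal may stand as 1 region.

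Gene bounds, symbols and starts came from RefSeq tables of GRCm38.p6. Names were matched by symbol, then by a synonym held by 1 gene. Overlap was counted from 1 bp, width as end minus start. Class shares carry exact (Clopper-Pearson) 95% intervals, and no test was made, since the 2 replicates form 1 group and genes are not replicates. The members and lists were chosen with earlier results of these data known. Promoter-named members and 8 fixed genes are described by name, without the coordinates of every region. Members with gene body regions are described by name too, and the rest mainly by counts and ranges. Genes below the median collagen length and the 2 starts of Col18a1 were looked at after their values were seen. Overlap and name counting was tested on simulated regions. Analyses used Python 3.11.15, numpy 2.4.6, pandas 2.3.3, scipy 1.17.1 and matplotlib 3.10.9.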

Additional observations from a re-analysis of the deposited data

How the results depend on the processing

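For 9 results 63 alternative values were computed. Of these, 51 stayed within 1.5 times a count or 1 SD of a value, 12 moved and 0 reversed. Counts, widths and shares have no direction, so none could reverse. As the basement membrane count was 0 in each list, leaving out a replicate or taking either one had to give 0 again. For the median width and the covered share, leaving out 1 of 2 replicates always stays within 1 SD, so those 4 values could not move. With overlap of the gene bounds, or a name of any class, in place of a promoter name, 11 collagen genes counted in place of 7, 2 fibrillar in place of 1 (Col5a1 added) and 8 others in place of 5. The fibrillar count ranged from 1 to 2 with 1 replicate left out and was 2 with either replicate, because of Col1a1 in replicate 1. With Col7a1, Col15a1 and Col18a1 counted as basement membrane, that class had 2 of 9 marked and the epithelial class 0 of 1. With at least 10% of the gene covered, 5 genes were overlapped in place of 11. With regions shared by both lists only, 2.32% of the collagen gene length was covered, against 2.65% ± 0.156 (SD, n = 2). The rules based on 1000 or 5000 bp from a start gave 7 collagen genes (background 8.55% and 11.6%). Where no start was listed, as for Col2a1, Col9a3, Col14a1 and Col26a1, either end of the gene was used instead. The background genes were treated alike. With 1 replicate left out, 7 to 8 collagen genes were named by promoter regions, 13 to 14 by any class and 13 overlapped. No paired analysis was possible because there is 1 group of 2 replicates. The unknown depth limits every absence above to regions not called.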
